A study of Homo sapiens with 2 samples.

Results

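The 14-3-3 genes are a family of 7 human genes: SFN (sigma), YWHAB (beta), YWHAE (epsilon), YWHAG (gamma), YWHAH (eta), YWHAQ (theta) and YWHAZ (zeta). They were taken by symbol, and all 7 were found among the 29452 gene rows of an RNA sequencing study. The cells were MDA-MB-231, a human cell line from a breast cancer without hormone receptors or HER2. The study held 1 library of cells carrying a short hairpin RNA against CDK14 (CDK14-sh) and 1 library of cells carrying a scramble control. Both were stranded mRNA libraries made from Trizol RNA. CDK14 is a cyclin-dependent kinase that acts with cyclin Y at the cell membrane. The family was chosen by the ratio of SFN between these same libraries, which was known beforehand, so its levels are a description and none was tested. With 1 library per group there is also no replicate check, and higher and lower refer to these 2 libraries. Values are RPKM (reads per kilobase of exon, scaled to the reads assigned to genes in each library), and intervals in parentheses are 95% intervals from the read counts, which cover counting error only.

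The 14-3-3 proteins are small acidic adaptors that work as dimers and bind phosphorylated serine and threonine motifs. By binding they hold partners in the cytoplasm, hide or expose their surfaces, or join 2 partners. Most isoforms are made in nearly every tissue and pair freely with each other. The sigma isoform is largely epithelial, prefers to pair with itself and is induced by DNA damage. It then keeps the CDK1 and cyclin B complex out of the nucleus. In breast cancer the SFN gene is often silenced by DNA methylation, whereas the zeta isoform is often overproduced.

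Reads assigned to genes numbered 15478156 in CDK14-sh, against 17217564 in the scramble control. CDK14 itself stood at 0.548 RPKM in CDK14-sh and 2.48 RPKM in the scramble control, or 22.1% (16.4% to 29.4%). Among markers of the line, VIM, CD44, AXL, MSN and CAV1 all stood above 36 RPKM in both libraries, while ESR1, PGR and CDH1 were below 1 RPKM. The levels of the expressed markers differed between the libraries. In CDK14-sh, MSN was 2.56-fold lower, CAV1 1.81-fold lower, VIM 1.70-fold lower and AXL 1.06-fold lower, and CD44 was 1.16-fold higher. EPCAM, listed as low, stood at 5.46 RPKM in CDK14-sh and 5.33 RPKM in the scramble control. Of 6 markers of leukocytes, endothelium, fibroblasts and liver, COL1A1 alone passed 1 RPKM, at 1.99 RPKM in CDK14-sh, against 1.65 RPKM in the scramble control.

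SFN stood at 8.32 RPKM in CDK14-sh (170 reads), against 36.4 RPKM in the scramble control (828 reads). That is 22.8% of the control level (19.3% to 27.0%), or 4.38-fold lower (3.71 to 5.20). By level, SFN was number 5225 of all gene rows in CDK14-sh and number 1245 in the scramble control. The gene is a single exon with no intron on the plus strand of chromosome 1, at positions 26863138 to 26864457 of GRCh38, so its whole row of 1320 bases is 1 transcript. In bulk libraries, fewer cells with a transcript and less of it per cell cannot be told apart.

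**Figure D1:**
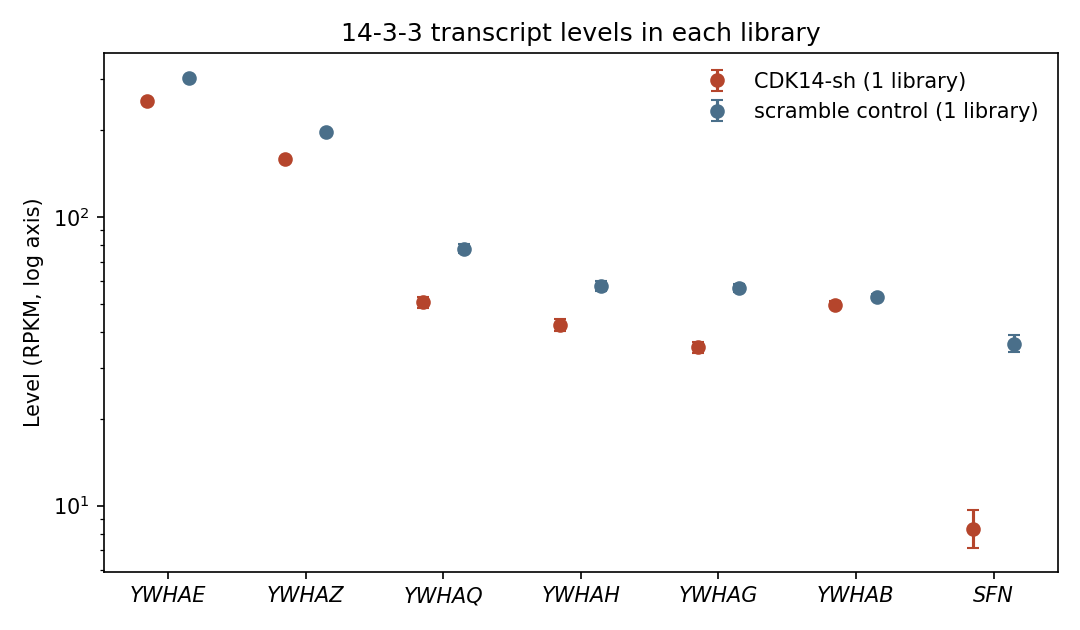
Level of each 14-3-3 transcript (RPKM, log axis) in the CDK14-sh library and in the scramble control library, ordered by level in the control. Bars are 95% counting intervals, often smaller than the points. SFN shows the widest gap, 8.32 RPKM in CDK14-sh and 36.4 RPKM in the control, and YWHAB the narrowest.

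The other 6 transcripts were also lower in CDK14-sh, each by far less. YWHAG, the gamma isoform, abundant in brain, stood at 35.4 RPKM in CDK14-sh and 56.6 RPKM in the scramble control, 1.60-fold lower (1.52 to 1.69). YWHAQ, the theta isoform, first known from T cells, stood at 50.6 RPKM in CDK14-sh and 77.7 RPKM in the scramble control, 1.53-fold lower (1.45 to 1.62). These were the widest gaps after SFN.

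YWHAH, the eta isoform, stood at 42.3 RPKM in CDK14-sh and 57.8 RPKM in the scramble control, 1.37-fold lower (1.28 to 1.46). YWHAZ, the zeta isoform, a partner of many kinases and of BAD, stood at 158.5 RPKM in CDK14-sh and 196.1 RPKM in the scramble control, 1.24-fold lower (1.22 to 1.26). YWHAE, the epsilon isoform, which prefers to pair with other isoforms, stood at 251.1 RPKM in CDK14-sh and 301.8 RPKM in the scramble control, 1.20-fold lower (1.18 to 1.23). The 3 ratios were closer to 1 than those of gamma and theta.

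YWHAB, the beta isoform, stood nearly level, at 49.7 RPKM in CDK14-sh and 52.7 RPKM in the scramble control, 1.06-fold lower (1.02 to 1.10). No counting interval of the 7 ratios held 1 with the deposited RPKM. With mitochondrial reads left out of the library totals, the log2 ratio of YWHAB was -0.04 (-0.09 to 0.008), an interval that holds 0. The 7 genes lie apart from each other in the genome. On GRCh38, YWHAB spans 44885676 to 44908532 on chromosome 20 and YWHAE 1344272 to 1400378 on chromosome 17. YWHAG spans 76326794 to 76359031 on chromosome 7, YWHAH 31944461 to 31957603 on chromosome 22 and YWHAQ 9583972 to 9631014 on chromosome 2. YWHAZ lies on chromosome 8, from 100916525 to 100953388. All 7 rows had the same start and end as the GENCODE v29 gene.

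**Figure D2:**
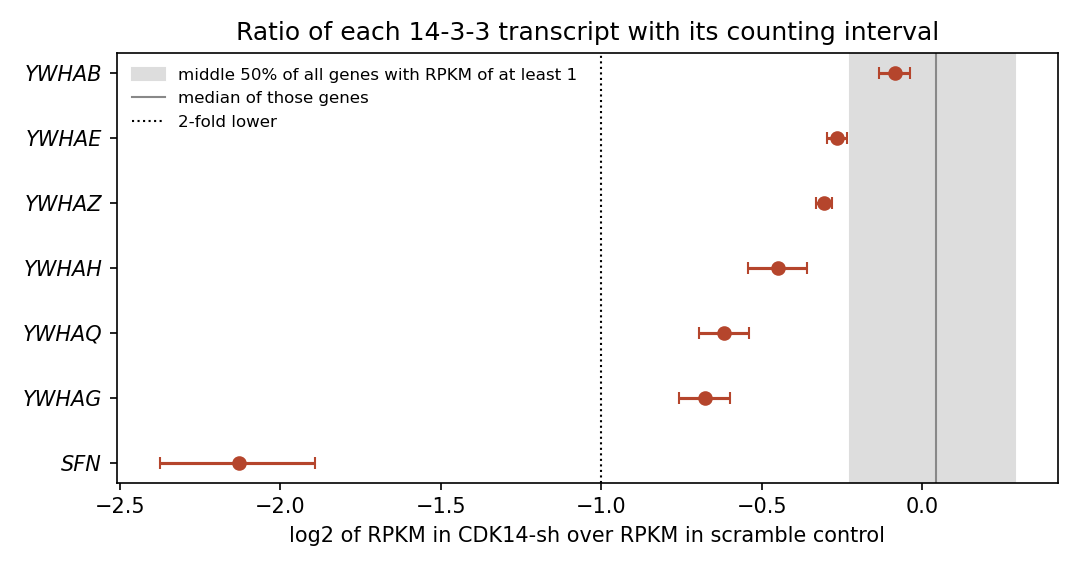
log2 of the RPKM in CDK14-sh over the RPKM in the scramble control for each 14-3-3 transcript, with its 95% counting interval. Grey marks the middle 50% of all genes that reached 1 RPKM in either library and their median, 0.04. SFN lies at -2.13, beyond the dotted line of 2-fold lower, and the other 6 lie between -0.68 and -0.09.

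The order of the ratios was resolved by counting for most pairs. Of the 21 pairs of members, 20 had a difference of log2 ratios whose counting interval did not hold 0. The exception was YWHAG against YWHAQ, with a difference of -0.06 (-0.17 to 0.05). YWHAE against YWHAZ was the closest of the others, 0.04 (0.001 to 0.08). SFN against YWHAG, the next lowest, differed by -1.45 (-1.70 to -1.20). These intervals hold no spread between cultures.

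Set against all genes, 1 of the 7 members was at least 2-fold lower on the scale log2((RPKM + 0.1)/(RPKM + 0.1)), which understates the change of low genes, and 0 were at least 2-fold higher. The background was 3.47% at least 2-fold lower and 3.21% at least 2-fold higher, over the 14878 genes that reached 1 RPKM in either library. These are 516 lower and 478 higher genes; in TPM they were 732 lower and 322 higher, and without mitochondrial reads 536 lower and 622 higher. All 7 members had a log2 ratio below 0, against 45.3% of those genes. All 7 reached 30 RPKM in at least 1 library, and among the 1715 genes at that level 2.16% were at least 2-fold lower and 45% lay below 0. The median log2 ratio was -0.45 over the 7 members and -0.38 over the 6 members without SFN. It was 0.04 over all genes that reached 1 RPKM and 0.05 over those that reached 30 RPKM. Since the family was proposed with SFN's ratio known, the count for SFN supports nothing further. The same holds for SFN's part in the values over all 7 members.

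Single positions in that background differed widely between isoforms. Only 0.686% of genes (102) had a lower log2 ratio than SFN. The shares with a lower ratio were 7.56% for YWHAG, 8.76% for YWHAQ and 13.6% for YWHAH. They were 19.7% for YWHAZ, 22.1% for YWHAE and 36.6% for YWHAB. YWHAB thus lay inside the middle 50% of all genes, and the other 6 lay below it.

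**Figure D3:**
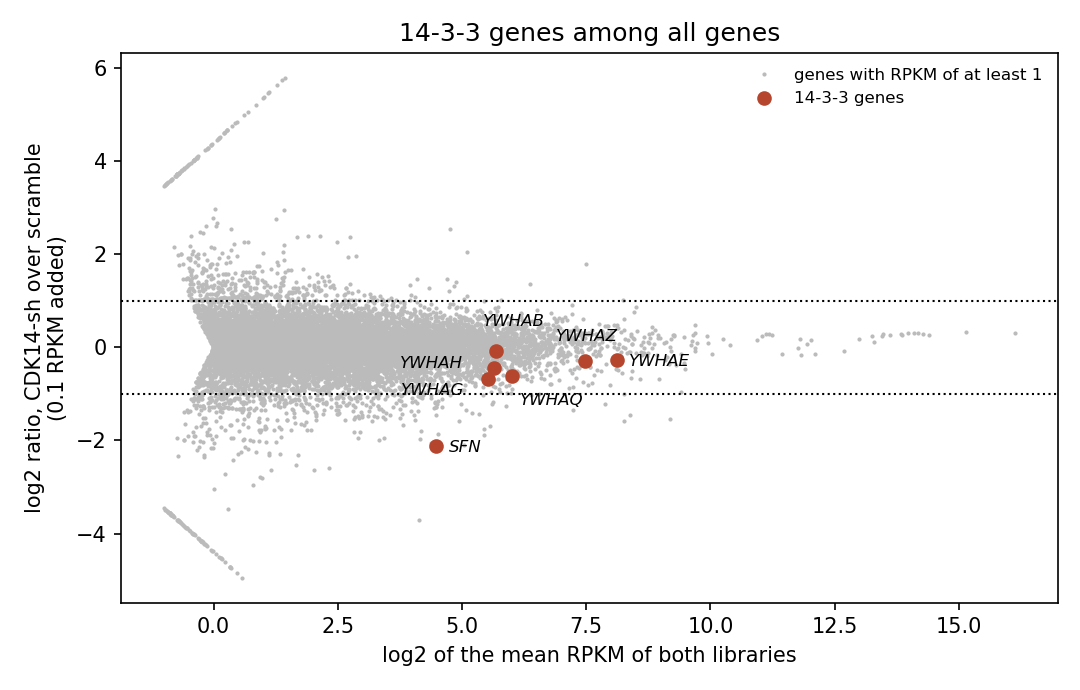
log2 ratio of CDK14-sh over scramble (0.1 RPKM added) against the log2 of the mean RPKM of both libraries, for the 14878 genes that reached 1 RPKM in either library. The 7 14-3-3 genes are in red. SFN lies at -2.12, and the other 6 lie between 0 and the dotted line of 2-fold lower, among the well expressed genes.

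Summed over the family, the level was 595.9 RPKM in CDK14-sh and 779.1 RPKM in the scramble control, 76.5% of the control. Without SFN the sum was 587.6 RPKM in CDK14-sh, against 742.7 RPKM in the scramble control, 79.1% of the control. The lower sum was therefore spread over several isoforms and did not rest on SFN alone. Of the difference of 183.2 RPKM that separated the sums, YWHAE made up 27.7%, YWHAZ 20.5%, SFN 15.3%, YWHAQ 14.8%, YWHAG 11.6%, YWHAH 8.45% and YWHAB 1.65%. For YWHAE and YWHAZ this was less than their shares of the control sum, 38.7% and 25.2%. For SFN it was more than its share, 4.68%. Family reads were 0.310% of all reads in CDK14-sh, against 0.387% in the scramble control.

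The make-up of the pool shifted most, in percentage points of summed RPKM, at YWHAE and SFN. SFN held 1.40% of the summed RPKM in CDK14-sh, against 4.68% in the scramble control, a difference of -3.28 percentage points. YWHAE, the most abundant isoform, held 42.1% in CDK14-sh, against 38.7% in the scramble control, a difference of 3.40 percentage points. YWHAZ held 26.6% in CDK14-sh, against 25.2% in the scramble control. Together these leading isoforms took most of the pool in both libraries.

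YWHAB held 8.34% of the summed RPKM in CDK14-sh, against 6.76% in the scramble control. YWHAQ held 8.49% in CDK14-sh, against 9.97% in the scramble control. YWHAH held 7.10% in CDK14-sh, against 7.42% in the scramble control, and YWHAG 5.94% in CDK14-sh, against 7.27% in the scramble control. The shares of YWHAE, YWHAZ and YWHAB were thus higher in CDK14-sh although their levels were lower, because the sum was lower still. As a share of the family's reads, with no correction for length, SFN held 0.354% in CDK14-sh (0.303% to 0.412%) and 1.24% in the scramble control (1.16% to 1.33%).

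The order of levels was YWHAE, YWHAZ and YWHAQ first, and SFN last, in both libraries. In CDK14-sh, YWHAB came at rank 4, YWHAH at rank 5 and YWHAG at rank 6. In the scramble control, YWHAH came at rank 4, YWHAG at rank 5 and YWHAB at rank 6. Neighbours whose counting intervals overlapped were YWHAQ and YWHAB in CDK14-sh (48.5 to 52.8 and 48.4 to 50.9 RPKM) and YWHAH and YWHAG in the scramble control (55.5 to 60.1 and 54.8 to 58.5 RPKM).

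These orders depend on the length used for each gene. The deposited RPKM divides by the summed length of all annotated exons, which is 7933 bases for YWHAB although its longest coding transcript in GENCODE v29 has 3109 bases. For YWHAZ the lengths are 8555 and 5248 bases, and for YWHAE 3847 and 2211 bases, while for SFN and YWHAG they are equal. Per base of the longest coding transcript, YWHAB stood at 126.7 in CDK14-sh, against 134.4 in the scramble control, at rank 3 in both libraries. The order was then the same in both libraries, with YWHAQ, YWHAH, YWHAG and SFN following. On that scale SFN held 0.847% of the sum in CDK14-sh, against 2.93% in the scramble control. The ratio of a single gene between the libraries does not depend on its length.

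**Figure D4:**
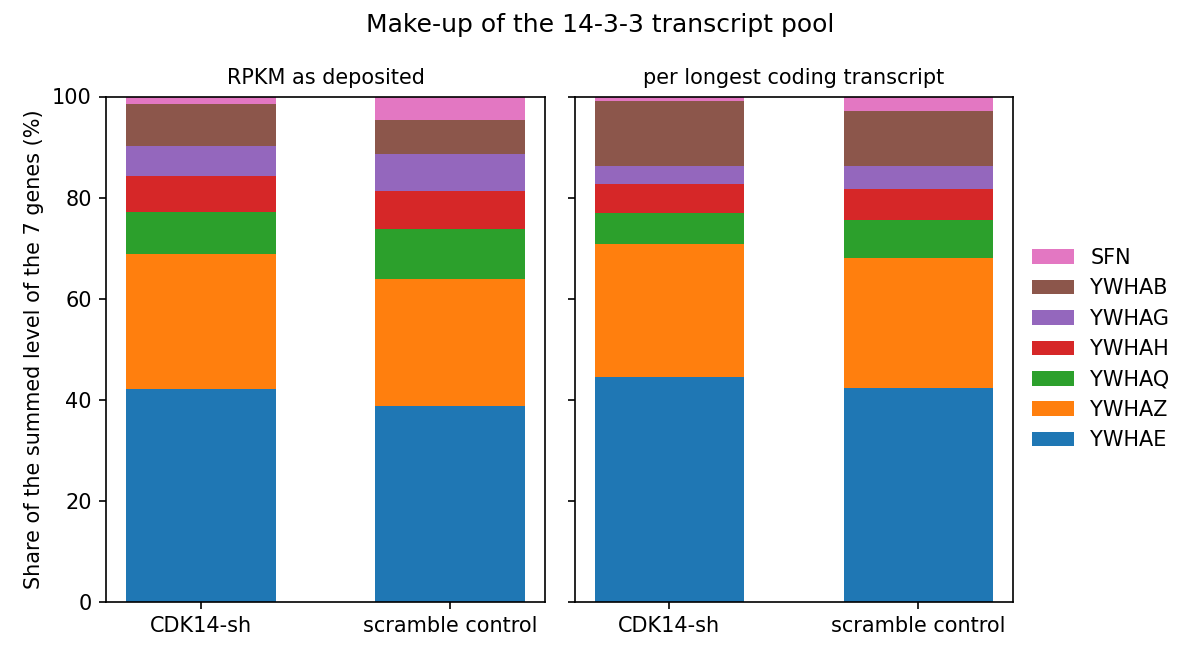
Share of each isoform in the summed level of the 7 14-3-3 genes (percent), in the CDK14-sh library and the scramble control library. Left, RPKM as deposited; right, the same reads per base of the longest coding transcript. The top segment, SFN, is 1.40% in CDK14-sh and 4.68% in the control on the left, and 0.847% in CDK14-sh and 2.93% in the control on the right.

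Copies of these genes took few reads. The table held 9 rows named as pseudogenes of YWHAZ, YWHAE, YWHAB or YWHAQ, with 37 reads in all in CDK14-sh, against 65 in the scramble control. These are 0.0771% of the members' reads in CDK14-sh and 0.0976% of those in the scramble control. YWHAZP3 (17 reads in CDK14-sh, 16 in the scramble control) and YWHAZP2 (11 reads in CDK14-sh, 23 in the scramble control) held the most. Reads that fit both a parent and its near-identical copy may have been dropped or split by the authors' counting, and how many were lost that way is not known. Exons of YWHAH share at most 25 bases with C22orf24 on the other strand, a row with 14 reads in CDK14-sh, against 26 in the scramble control. No other member shared exons with another row.

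The 3' untranslated regions (UTRs) of the 7 members were searched for 4 words of 7 bases that are frequent in transcripts lower in CDK14-sh. At least 1 occurred in 56.7% of 224 coding genes at least 2-fold lower and in 24.4% of 10135 others. The words were selected on the ratios described here, so neither these shares nor their presence in SFN is independent support. In the basic coding transcript with the longest 3' UTR (GENCODE v29), 5 of 7 members held a word on the transcript strand. Among 10359 expressed coding genes searched alike, 25.1% held at least 1 word. The word GTCATGC occurred in 6.35% of those genes and TCATGCA, which overlaps it by 6 bases, in 10.6%. The word ATCCATA occurred in 8.34% and TCCATAA, which overlaps that one by 6 bases, in 10.1%. On the opposite strand 1 member, YWHAG, held GTCATGC. A match is a string of letters and not a shown site.

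The sites are printed to show the sequence around each word. Each line gives 30 bases of the transcript, 5′ to 3′, with the word in capitals (GRCh38).
SFN, chr1:26864152-26864181, plus strand: cctaaccactgGTCATGCccccacccctgc
YWHAG, chr7:76329312-76329341, minus strand: gttctgtagatTCATGCAagtggagctgtc
YWHAQ, chr2:9585256-9585285, minus strand: ATCCATAcagggtgtcatccttctttcctt
YWHAH, chr22:31956705-31956734, plus strand: ctccacgctgaTCATGCAgttgctgcgaga
YWHAE, chr17:1344419-1344448, minus strand: tccttttttctTCCATAAataatttgtttg

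The SFN word starts at base 204 of a 3' UTR of 498 bases, which is short beside the median of 1357 bases over the genes searched. The YWHAG word starts at base 247 of 2783, and the YWHAQ word at base 1 of 1314, directly after the stop codon. The words of YWHAH and YWHAE lie in some transcripts only: 1 of 2 coding transcripts of YWHAH and 1 of 4 of YWHAE held one. YWHAB held none in a 3' UTR of 2094 bases, and YWHAZ none in 4168 bases, the longest of the family. Since both the words and the family were chosen on these ratios, no relation between the words and the members' ratios is drawn. Which transcripts were made in these cells was not measured, and the part of the words in the ratios was not tested.

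The coding genes whose log2 ratio lay nearest to that of SFN (-2.12), among 11160 with at least 30 reads in both libraries, were TLN1, AIDA, MUC5AC and LIFR, at distances of 0.02 to 0.10. With 1 library per group, nearness means only a like ratio. MUC5AC, a secreted epithelial mucin, stood at 0.881 RPKM in CDK14-sh and 3.92 RPKM in the scramble control. LIFR, a receptor of leukaemia inhibitory factor, stood at 0.681 RPKM in CDK14-sh and 3.07 RPKM in the scramble control. TLN1 and AIDA hold 1 word in the 3' UTR, LIFR holds 3 in a 3' UTR of 6632 bases, and MUC5AC holds none. In AIDA and in LIFR, 1 of 2 coding transcripts holds a word. Of all coding genes at least 2-fold lower, 56.7% hold a word, and the words were selected on these ratios.

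Genes related to SFN in function were then read from lists. In TPM, in which RPKM sums to the same total in both libraries, every log2 ratio shifts by -0.15, so medians near 0 change sign with the scale, and that of all genes moves alike. Counts past 2-fold stand beside a background of 3.47% lower and 3.21% higher over all genes. Among genes induced by DNA damage, the class SFN belongs to, 21 of 25 passed 1 RPKM, 1 was at least 2-fold higher and 0 lower, with a median log2 ratio of 0.10 beside 0.04 over all genes. CDKN1A, encoding the CDK inhibitor p21, was 2.05-fold higher (1.91 to 2.21), at 44.3 RPKM in CDK14-sh and 21.6 RPKM in the scramble control. Its log2 ratio, 1.03, is close to the threshold and falls short of 2-fold in TPM. MDM2, a ubiquitin ligase, was 1.64-fold higher (1.51 to 1.78), and PMAIP1, encoding NOXA, 1.64-fold higher (1.57 to 1.70). The largest ratios of this list thus lay on the other side of 1 from SFN. Of the 21, 13 lay above 0 and 8 below 0, beside 45.3% below 0 over all genes. In TPM the median of this list was -0.07.

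Of 14 known or likely regulators of SFN, 10 passed 1 RPKM. All of these were within 2-fold, and their median log2 ratio was -0.06. TRIM25, the ubiquitin ligase that marks the sigma protein for degradation, stood at 13.2 RPKM in CDK14-sh and 19.8 RPKM in the scramble control, 1.5-fold lower (1.40 to 1.60). DNMT3B, a DNA methyltransferase, was 1.40-fold lower (1.14 to 1.72). RFWD2, encoding the ubiquitin ligase COP1, was 1.24-fold higher (1.10 to 1.39). TP63, TP73, DNMT3A and ESR1 were below 1 RPKM in both libraries.

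Epithelial genes, among which SFN is usually found, had a median log2 ratio of -0.33 over the 15 of 25 that passed 1 RPKM. Of these 1 of 15 was at least 2-fold lower, 0 were higher and 10 lay below 0, against 3.47% at least 2-fold lower and 45.3% below 0 over all genes. ITGB4, the beta subunit of the hemidesmosome integrin, stood at 4.14 RPKM in CDK14-sh and 8.38 RPKM in the scramble control, 2.02-fold lower (1.81 to 2.27). PERP, a desmosome protein, was 1.83-fold lower (1.66 to 2.01), KRT19 1.82-fold lower (1.69 to 1.96) and KRT8 1.76-fold lower (1.68 to 1.84). The KRT8 row shares exon bases with the KRT18 row. The list's 9 genes under 1 RPKM include CDH1, KRT5, KRT14 and GRHL2. OVOL1 was not analysed here.

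Genes whose proteins bind 14-3-3, called clients, were described in 4 lists. Among transcription clients, 12 of 17 passed 1 RPKM, with a median of -0.13 beside 0.04 over all genes; 2 were at least 2-fold lower and 0 higher, against a background of 3.47% lower. From 5 RPKM the median was 0.06. YAP1, the Hippo pathway effector that 14-3-3 holds in the cytoplasm once LATS kinases have phosphorylated it, stood at 15.3 RPKM in CDK14-sh and 46.0 RPKM in the scramble control, 3.0-fold lower (2.83 to 3.18). MITF, a relative of TFEB that is likewise held in the cytoplasm, was 2.38-fold lower (2.04 to 2.79). CRTC3, a CREB coactivator, was 1.76-fold higher (1.38 to 2.24) and FOXO3 1.29-fold lower (1.12 to 1.5). The YAP1 row shares exon bases with a noncoding row that held 217 reads in CDK14-sh, against 777 in the scramble control. The lists other than the markers of the line named 6 genes as past 2-fold. Of these, YAP1 and MITF hold a 3' UTR word from the 4 above, and CDKN1A, IRS1, ITGB4 and KIF23 hold none. A word lies in 6 of 8 coding transcripts of YAP1 and in 5 of 10 of MITF.

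Among cell cycle and checkpoint clients, 12 of 12 passed 1 RPKM, 0 were past 2-fold and the median was -0.09. CHEK1, the checkpoint kinase, was 1.53-fold lower (1.41 to 1.66), and CDC25A, the phosphatase it marks for 14-3-3 binding, 1.49-fold lower (1.31 to 1.70). CDK1, the mitotic kinase that the sigma isoform sequesters, was 1.36-fold lower (1.27 to 1.45). WEE1, the kinase that inhibits CDK1, was 1.46-fold higher (1.34 to 1.59).

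Among signalling and survival clients, 26 of 27 passed 1 RPKM, 1 was at least 2-fold lower and 0 higher, and the median was 0.05 (-0.09 in TPM). IRS1, the insulin receptor substrate, stood at 8.37 RPKM in CDK14-sh and 18.8 RPKM in the scramble control, 2.24-fold lower (2.10 to 2.39). RIN1, a RAS effector, was 1.91-fold lower (1.59 to 2.31), and TBC1D4, a regulator of glucose transporter traffic, 1.72-fold lower (1.52 to 1.96).

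Among cytoskeleton and polarity clients, 15 of 17 passed 1 RPKM, 1 was at least 2-fold lower and 0 higher, and the median was -0.19. KIF23, a motor protein needed for cytokinesis, stood at 13.5 RPKM in CDK14-sh and 31.4 RPKM in the scramble control, 2.33-fold lower (2.18 to 2.48), and VIM, encoding vimentin, 1.70-fold lower (1.67 to 1.74). The VIM row shares exon bases with its antisense row VIM-AS1. RND3 was 1.45-fold lower (1.35 to 1.57) and BCAR1, encoding the adhesion adaptor p130Cas, 1.41-fold lower (1.29 to 1.54). Among kinases that phosphorylate 14-3-3 binding sites, 25 of 26 passed 1 RPKM, 0 were past 2-fold and the median was 0.05 (-0.10 in TPM). PIM1 was 1.79-fold higher (1.54 to 2.08). LATS2 was 1.69-fold lower (1.47 to 1.95) and PRKACB, a catalytic subunit of protein kinase A, 1.5-fold lower (1.31 to 1.72).

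**Figure D5:**
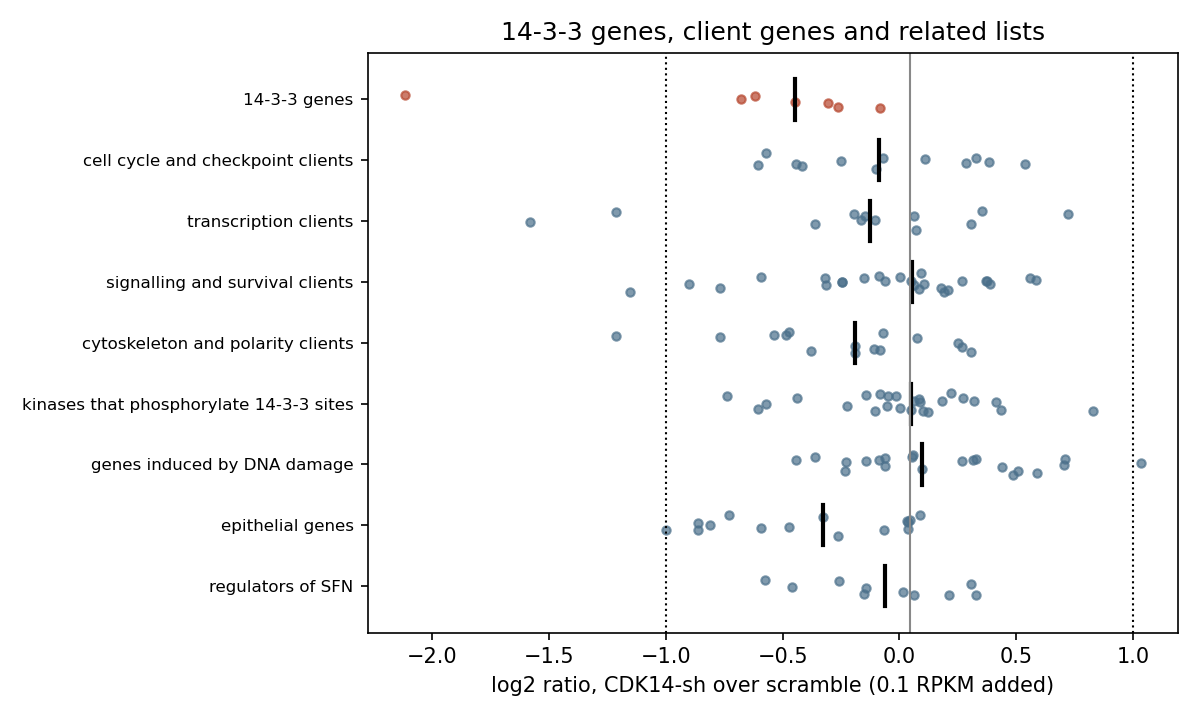
log2 ratio of CDK14-sh over scramble (0.1 RPKM added) for the 14-3-3 genes and for members of 8 related lists that reached 1 RPKM in either library. Each point is a gene, black bars are medians, the grey line is the median of all genes (0.04) and dotted lines mark 2-fold. The 14-3-3 genes have the lowest median of the rows shown, -0.45 (-0.38 without SFN), and SFN, whose ratio chose the family, is the lowest point. The 5 markers expected in the line, not shown, had a lower median, -0.77.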

How the data were processed

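The authors deposited 1 table of RPKM values per gene row for both libraries, with exon positions and summed exon lengths, per the file headers. Per the submitters' processing notes, Subread 1.5.1, featureCounts and Bowtie 0.12.2 were used, in roles not stated, with builds listed as mm8 and GRCh38. How strand and multi-mapping reads were handled is not given here. In each library, 100% of nonzero values multiplied by row length fell on whole numbers of one step (within 0.01 read), which gave reads per gene. In a gene of 1 kb, 3 reads are 0.194 RPKM in CDK14-sh and 0.174 RPKM in the scramble control. Intervals of ratios and read shares are Clopper-Pearson, those of levels exact Poisson, and those of differences between members use the normal approximation on log counts. Of the 41 named genes and markers outside the family, 19 share exon bases with another row, whose reads cannot be told apart here. Read copies from PCR are not independent molecules.

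Ratios are log2((RPKM CDK14-sh + 0.1)/(RPKM scramble + 0.1)) over genes that reached 1 RPKM in either library, and folds are plain ratios of RPKM. Members, lists and words were chosen with earlier results of these data known. Named genes are the members, CDK14, copies of the members, the 4 genes nearest to SFN in ratio, and in each list up to 4 genes with the largest ratio and at least 30 reads, plus any past 2-fold; some of the genes this names are not reported here. Calls and intervals were tried on simulated reads that held counting error only, which the intervals assume. The simulation is therefore no check of spread between cultures. Scripts ran in Python 3.11.15 with scipy 1.17.1, numpy 2.4.6, matplotlib 3.10.9 and pandas 2.3.3.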

Additional observations from a re-analysis of the deposited data

How the results depend on the processing

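No paired analysis was possible because there was a single library on each side. Of the 15 alternatives tried, the filter at 30 RPKM and the length of the longest coding transcript were added after seeing the data. All 7 members stayed below 0, and SFN alone at least 2-fold lower, in each of the 10 alternatives that gave members' ratios. A change of scale moves all genes alike, so the share of all genes below 0 moves with it. That share was read on the main scale only, so the count below 0 has no background in the other scales. Filters on level could not move a member's ratio, and dropping the length hardly could, so those alternatives are no check of it. SFN ranged from -2.27 (TPM) to -2.01 (pseudocount of 1 RPKM). The shifts of scale were -0.15 log2 in TPM, -0.04 for median centring and for trimmed-mean scaling, and 0.04 without mitochondrial reads (17.1% of CDK14-sh reads and 14.5% of scramble reads). The log2 ratio of the family sum was -0.39; it was -0.54 in TPM, -0.43 after median centring and after trimmed-mean scaling, -0.34 without mitochondrial reads, -0.32 from reads without length and -0.34 per longest coding transcript. The difference of SFN's share, -3.28 points, was -0.89 in reads, -4.35 without YWHAZ in the sum and -2.09 per longest coding transcript; as a percentage of the mean of the other 6 it was -20.9 points. Past 2-fold lay 478 higher and 516 lower genes. These counts were 176 and 259 when the pseudocount was 1 RPKM, 2173 and 2043 without a filter on level, 83 and 177 from 5 RPKM, 12 and 37 from 30 RPKM, 1355 and 1421 at a threshold of 1.5-fold, and 109 and 226 for protein-coding rows. List medians moved in TPM to -0.24 (cell cycle and checkpoint clients), -0.34 (cytoskeleton clients), -0.07 (genes induced by DNA damage) and -0.21 (regulators of SFN), and to -0.10 for epithelial genes with no level filter, where more genes enter. Medians also changed sign with the filter: transcription clients 0.06 and kinases -0.07 from 5 RPKM, and regulators of SFN 0.04 with no filter (0.02 from reads without length). Of 60 values of the 6 other members, 48 stayed within their counting interval and 12 moved. The 12 all came from changes of scale, and in TPM the value of every other member moved. Many of the 48 come from filters or length, which leave a ratio as it is, so their number does not measure stability.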

Other observations

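The 8 expressed coding genes nearest to SFN on chromosome 1, 4 on each side, were read after the members' values were seen. Their log2 ratios ran from -0.47 to 0.42, and 0 of 8 were past 2-fold. On one side ZDHHC18, a palmitoyltransferase gene, stood at 3.90 RPKM in CDK14-sh and 2.90 RPKM in the scramble control, and ARID1A, a subunit gene of the SWI/SNF remodeller, at 6.51 RPKM in CDK14-sh and 9.04 RPKM in the scramble control. On the other side GPATCH3 stood at 9.32 RPKM in CDK14-sh and 9.14 RPKM in the scramble control, and NUDC, a dynein cofactor gene, at 163.7 RPKM in CDK14-sh and 170.8 RPKM in the scramble control.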
